A study of Mus musculus with 7 samples.

Results

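Interferon response genes were followed through the H3K4me2 and H3K4me3 peak lists of mouse common monocyte progenitors (cMoPs), the bone marrow cells committed to making monocytes. The 34 genes, chosen with earlier results of these data known, were split by role into 15 regulators and sensors and 19 induced effectors, and all 34 were found among the genes of the mm10 RefSeq table. They were read beside all 21631 protein-coding genes of the autosomes and X. An interval of a peak list counted for a gene when it lay within 5 kb of either end of that gene. Mx1 and Mx2, effectors that block viral replication, are annotated as transcribed pseudogenes in this reference strain and so lie outside the 21631.

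The lists come from CUTAC. In this low-salt form of tagmentation, an antibody to a histone mark guides a transposase that cuts accessible DNA nearby. All cMoPs were sorted from bone marrow, with 100000 cells per library, and the genotypes compared are the WT form of the −165-kb enhancer of Zeb2, a transcription factor gene, and the variant labelled DE. H3K4me2, a mark of promoters and enhancers, was profiled in 2 WT and 2 DE libraries, all of batch 2. H3K4me3, a mark of promoters, was profiled in 1 WT library of batch 1, and the effects of mark and batch cannot be told apart there. The labels name no treatment with interferon, and they do not say whether replicates came from separate animals or what change DE makes. Of the 7 samples in the labels these 5 were used, and the remaining 2, H3K4me3 in WT MDPs and an IgG control, were not analysed here.

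Interferons are secreted alarm signals. Type I interferons act on a receptor built from Ifnar1 and Ifnar2, and interferon gamma on one built from Ifngr1 and Ifngr2. Kinases on these receptors switch on STAT proteins, which enter the nucleus, where a complex with Irf9 binds the interferon-stimulated response element (ISRE) and STAT dimers bind the gamma-activated site (GAS). The genes so induced include antiviral enzymes, GTPases, the Ifit RNA-binding proteins and chemokines. Cytoplasmic RNA sensors such as Ddx58 (RIG-I) and Ifih1 (MDA5) start the cascade through Irf3 and Irf7, and Socs1 dampens it.

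The stretches directly before the start of 7 of the genes are shown because they hold, or lack, the letters on which the comparison of classes turns. They are RefSeq sequences of GRCm38.p6 (mm10), 5′ to 3′ along each gene. Capitals mark the ISRE core GAAANNGAA on either strand and, in Irf1, Bst2 and Oas1a, also the GAS core TTCNNNGAA. Irf1 is shown from chr11:53769894-53770013 (plus strand) and Socs1 from chr16:10785537-10785636 (minus strand), as regulators with H3K4me2 over the core in all 4 lists. Among effectors, Bst2 is at chr8:71537473-71537612 and Isg15 at chr4:156200819-156200918 (both minus), and Oas1a at chr5:120907526-120907625 (minus). Ifit1 at chr19:34640759-34640888 and Ifit2 at chr19:34550584-34550693 (both plus) are neighbours in the Ifit cluster.
Irf1: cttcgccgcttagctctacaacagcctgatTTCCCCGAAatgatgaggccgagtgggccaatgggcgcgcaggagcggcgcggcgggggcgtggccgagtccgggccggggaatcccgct
Socs1: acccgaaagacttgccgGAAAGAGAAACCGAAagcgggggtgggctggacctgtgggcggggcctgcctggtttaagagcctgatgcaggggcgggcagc
Bst2: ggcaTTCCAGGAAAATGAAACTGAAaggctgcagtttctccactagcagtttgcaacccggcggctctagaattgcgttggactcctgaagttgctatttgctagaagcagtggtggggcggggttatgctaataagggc
Isg15: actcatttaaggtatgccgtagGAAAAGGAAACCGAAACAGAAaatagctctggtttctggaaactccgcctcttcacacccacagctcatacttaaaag
Oas1a: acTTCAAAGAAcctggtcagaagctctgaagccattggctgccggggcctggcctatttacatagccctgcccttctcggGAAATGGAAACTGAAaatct
Ifit1: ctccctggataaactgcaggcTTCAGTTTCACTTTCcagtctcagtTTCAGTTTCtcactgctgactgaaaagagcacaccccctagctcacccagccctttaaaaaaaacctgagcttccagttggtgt
Ifit2: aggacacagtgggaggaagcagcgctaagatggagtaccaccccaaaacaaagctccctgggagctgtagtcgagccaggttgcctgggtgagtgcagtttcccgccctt

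For H3K4me2 the WT lists held 32411 (replicate 1) and 28198 (replicate 2) intervals, the DE lists 22013 (replicate 1) and 17103 (replicate 2). For H3K4me3 there were 6427. The track line of the DE replicate 1 list names the same library as that of DE replicate 2, so its sample was taken from the series record. List length moved with genotype, and so did interval width, whose median was 152 and 212 bp in WT and 249 and 246 bp in DE. All 8 markers of cMoPs and monocytes were called in all 4 H3K4me2 lists, among them Csf1r, Ly6c2 and Kit, and so were all 7 markers of neutrophil progenitors, including Elane, Mpo and Prtn3. Of 8 dendritic and plasmacytoid markers, 5, 5, 4 and 4 were called in the order WT replicates 1 and 2, DE replicates 1 and 2, which is the order used throughout. Flt3 and Tcf4 were called in all 4 lists, Siglech in none, and Batf3 in both WT lists and neither DE list. Of the B cell markers, Cd79a and Cd79b were called in each list, while Pax5 was not. Of 7 T and NK cell markers 2, 1, 3 and 1 were called (Cd3e in none), and of 6 erythroid and megakaryocyte markers 3, 3, 3 and 2 (Klf1 in all 4, Gata1 and Hbb-bs in none).

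Regulators and sensors carried H3K4me2 in nearly every library, while a smaller share of the induced effectors did. Intervals were called at 14, 15, 15 and 13 of the 15 regulators and sensors, that is 93.3%, 100%, 100% and 86.7%. At the 19 effectors the counts were 10, 14, 6 and 4, that is 52.6%, 73.7%, 31.6% and 21.1%. Of all protein-coding genes 56.9%, 56.7%, 52.3% and 47.4% had an interval. The regulators thus lay above the share of all genes in each of the 4 libraries, while effectors lay above it in WT replicate 2 and below it in the other 3. All 4 lists called 13 regulators but only 4 effectors (Isg15, Usp18, Mx2 and Bst2), beside 44.8% of all genes. No list called the effectors Ifit1, Ifit3, Mx1, Ifi44 and Cxcl9, whereas every regulator was called in at least 2 lists, and 38.6% of all genes were called in none. Calls at Ifit3 are uncertain, because 47.8% of the 50-base words of its promoter window also occur in that of Ifit3b, and how reads with several matches were handled is not stated in the sources used. For Ifi44 and Oas1a the shares were 9.96% (with Npr3) and 9.56% (with Oas1g).

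**Figure D1:**
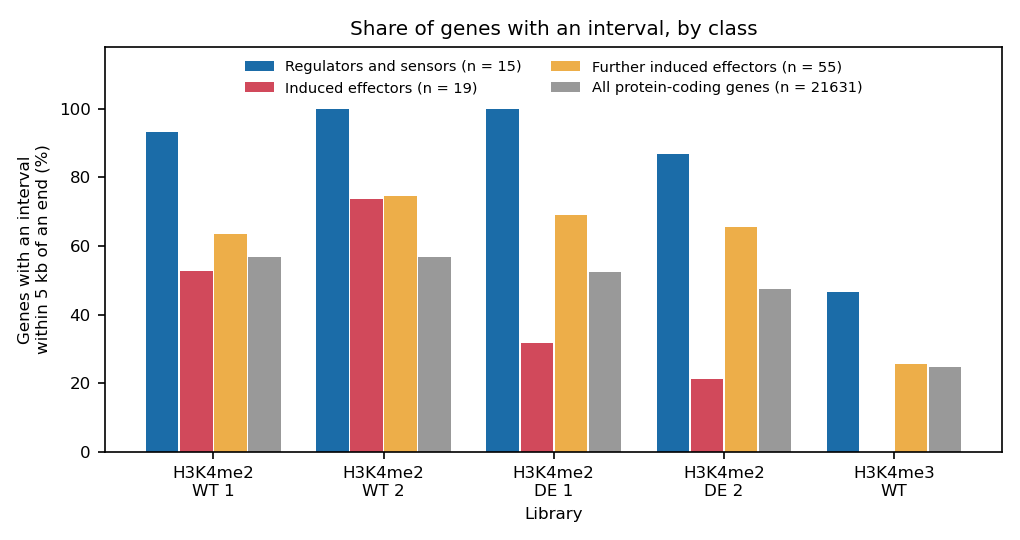
Share of genes (y axis, percent) with an interval within 5 kb of either gene end in each of the 5 libraries (x axis), for the 15 regulators and sensors, the 19 induced effectors, 55 further induced effectors and all 21631 protein-coding genes. Each bar is 1 library, so there are no error bars. Regulators and sensors stood at 86.7% to 100% in the H3K4me2 libraries and the 19 effectors at 21.1% to 73.7%, while no effector among the 19 had an H3K4me3 interval.

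By place in the lists, the called effectors among the 19 also stood lower. Place in a list is the position of a gene's strongest interval by p, in percent from the top. Among regulators and sensors that were called, the median place was 20.9%, 18.3%, 21.6% and 32.8%, close to the 21.6%, 22.3%, 26.9% and 30.7% of all called genes. Among called effectors it was 50.4%, 57.3%, 40.2% and 48.1%, further down in each list. The median fold of the strongest interval was 8.07, 9.17, 5.39 and 5.99 in called regulators and 5.63, 5.80, 5.77 and 4.63 in called effectors, beside 8.13, 8.93, 6.45 and 5.93 in all called genes, so in DE replicate 1 the effectors had the higher fold. These medians rest on the genes that passed the caller's threshold, which differ in number between libraries, and are descriptions only.

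The transcription factors of the pathway were marked throughout, apart from Stat2 and Irf7. Each strength given is the authors' value of the summit's fold over local background for the strongest interval of the gene. Irf5, a factor of the Toll-like receptor response in myeloid cells, had folds of 14.6 and 15.8 in WT and 9.54 and 11.3 in DE. This interval, at chr6:29528926-29529351 in WT replicate 2, stood 2796 bp inside the gene and not at its start, and ranked within the top 5.43% of every H3K4me2 list. Irf5 also had more bases covered than any other of the 34 genes in each of the 4 lists, with 1071, 1995, 1539 and 1242 bp.

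Irf1, an early-induced activator, had folds of 8.26 and 10.8 in WT and 5.03 and 8.25 in DE. Its start lay in intervals of all 4 lists, and more bases were covered in DE, 1384 and 1034 bp, than in WT, 800 and 887 bp. Irf2, its antagonist at shared sites, had folds of 7.91, 9.32, 7.05 and 5.99 and the reverse order of cover, with 723 and 994 bp in WT and 565 and 424 bp in DE. Irf3, the factor that the RNA sensors activate first, had folds of 13.8, 10.9, 10.1 and 5.54, in a region over its start that it shares with the divergent neighbour Bcl2l12. Reads there cannot be assigned to one gene or the other. Irf9, the DNA-binding partner of the STAT complex, had folds of 7.05, 4.58, 4.601 and 2.90, with the genotypes overlapping.

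Stat2 and Irf7 were the 2 regulators without a call in every list. Stat2, a STAT of the ISRE-binding complex, had 1 region over its start, at chr10:128270344-128270616, with a fold of 6.06 in WT replicate 2 and 3.80 in DE replicate 1 and no interval in the other 2 libraries. The calls thus crossed the genotypes. Irf7, the amplifier of type I interferon production, had folds of 5.16, 8.21 and 3.98 in WT replicate 1, WT replicate 2 and DE replicate 1 and no interval in DE replicate 2. Only WT replicate 2 covered the higher-coordinate end of Irf7, at chr7:141266433-141266594. One further region in its window was called in both WT lists and neither DE list, but that region lies nearest to Cdhr5, its neighbour.

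All 4 receptor chains were called in all 4 lists, at their starts. Ifngr2, the signalling chain of the interferon gamma receptor, had folds of 12.3, 22.2, 18.4 and 15.1, so the DE values lay between the WT values. Around its start 4 regions were called in every list. Ifngr1, the ligand-binding chain, had folds of 8.23 and 9.16 in WT and 4.56 and 6.67 in DE. Of the type I receptor, Ifnar1 had folds of 6.21, 10.03, 9.01 and 7.38 with overlapping genotypes, and Ifnar2 had 8.80 and 9.17 in WT against 3.92 and 5.02 in DE. Cover at Ifnar2 went the other way, with 661 and 514 bp in WT and 872 and 906 bp in DE. The strongest Ifnar2 interval of both WT lists lies at the far end of that gene, nearest to Il10rb, a receptor chain encoded next to it.

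The sensors and Socs1 were also called in all 4 lists. Ifih1, which binds long double-stranded RNA, had folds of 17.5 and 18.3 in WT and 10.5 and 10.01 in DE, at its start. Its cover of 360, 501, 457 and 428 bp overlapped between the genotypes. Ddx58, which binds short RNA with a triphosphate end, had folds of 6.17 and 6.25 in WT and 4.24 and 5.02 in DE. These folds come from separate places, as no Ddx58 region was in all 4 lists. The region over its start, at chr4:40239806-40239946, was called in WT replicate 2 alone. Trim25, the ubiquitin ligase that activates Ddx58, had folds of 5.61, 6.15, 7.45 and 3.95. Socs1, the feedback inhibitor of the receptor kinases, had folds of 6.23, 7.02, 5.39 and 3.50 and cover of 726, 1206, 679 and 328 bp. One Socs1 region, at chr16:10783071-10783263 beyond the lower-coordinate end, was called in both WT lists and neither DE list.

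**Figure D2:**
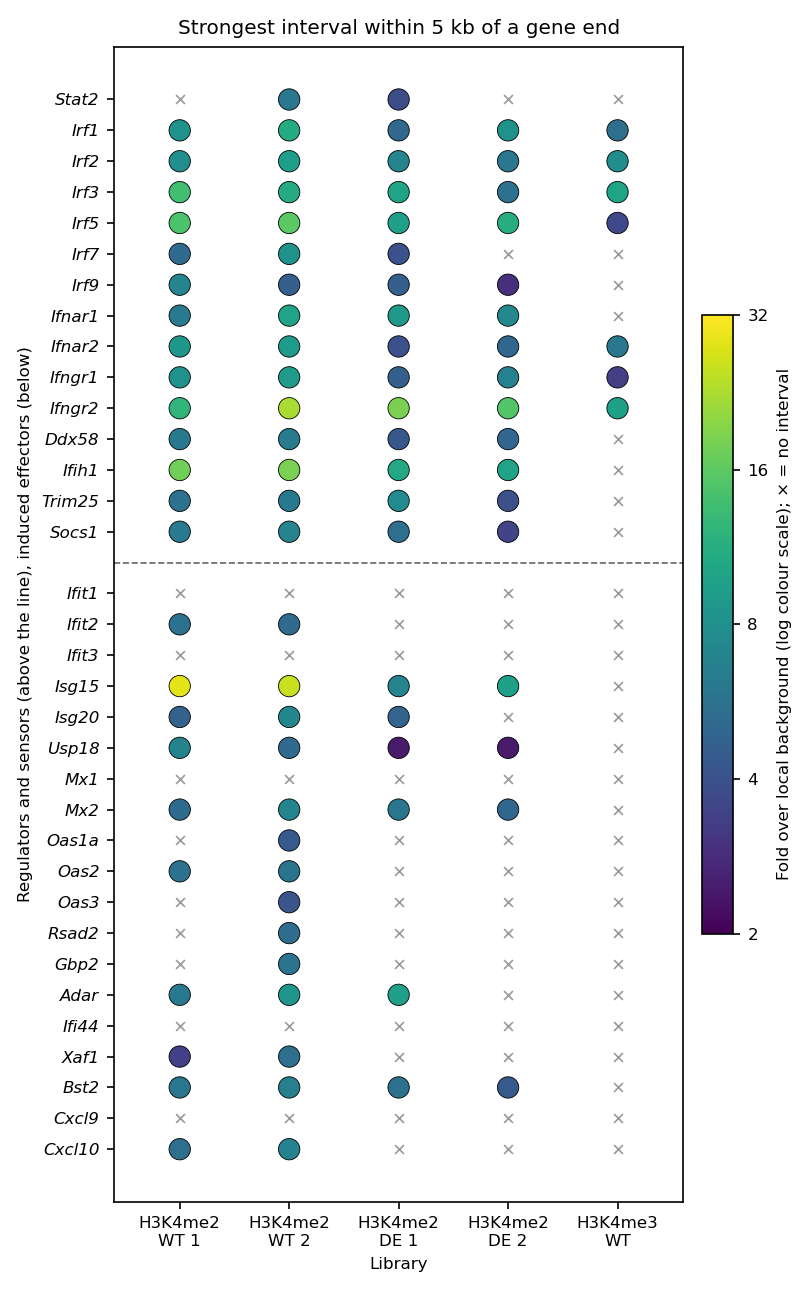
Fold over local background (log colour scale) of the strongest interval within 5 kb of a gene end, for each of the 34 genes (y axis) in each of the 5 libraries (x axis). A circle is an interval in that 1 library and a cross is no interval. The upper block of regulators and sensors is nearly filled in the 4 H3K4me2 columns, with gaps at Stat2 and Irf7, and the lower block of effectors has its gaps mainly in the DE columns.

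The 4 effectors called in every list differed in where the mark lay. Usp18, which removes Isg15 from proteins and binds the type I receptor, had an interval over its end at position 121245906 of chromosome 6, with folds of 6.92 and 5.14 in WT and 2.44 and 2.44 in DE. Both DE intervals ranked low, at 86.8% and 85.3% of their lists. Bst2 (tetherin), which holds budding virions at the cell surface, had folds of 5.96, 6.61, 5.62 and 4.32 at its start, with more cover in DE (846 and 601 bp) than in WT (339 and 479 bp). Mx2 had folds of 5.24, 7.04, 5.92 and 4.95.

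Isg15, a ubiquitin-like modifier, had the highest folds of the 34 genes in WT, 28.7 and 25.4, against 7.04 and 9.71 in DE. None of its 4 regions lay at its own start: the nearest interval was 1239 to 1282 bp from a gene end, on the side of Agrn, and the other regions lay nearest to Agrn or Perm1, its neighbours. The strongest of them, at chr4:156197340-156197694, is nearest to Agrn. By distance these values lie nearer to neighbouring genes than to Isg15.

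Further effectors were called in part of the lists. Adar, an RNA-editing enzyme, had folds of 6.17, 8.596 and 9.53 in WT replicate 1, WT replicate 2 and DE replicate 1, and Isg20, an exonuclease, had 4.74, 7.24 and 4.84 in the same libraries. Neither was called in DE replicate 2, the shortest H3K4me2 list. DE replicate 2 did hold an interval inside Adar, at chr3:89730583-89730809, over an annotated inner start. It lay 16114 bp from the nearest gene end and thus outside the window. Oas1a and Oas3, which make the activator of RNase L, Rsad2 (viperin) and the GTPase Gbp2 were called in WT replicate 2 alone, with folds of 4.35, 4.10, 5.31 and 5.80 in that order. These 4 intervals were 91 to 112 bp long.

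No test could show a difference between the genotypes for a single gene. The exact two-sided permutation test of the bases covered within the windows has 6 assignments of 4 libraries, its smallest p is 0.333, and it was run on 13287 protein-coding genes and Mx2. It called 0 of them (0.0%) after Benjamini-Hochberg adjustment and 0 at an unadjusted p under 0.05. Where the libraries of the genotypes did not overlap, the adjusted p was 0.941. Members are therefore described by whether the libraries overlap. In pooled cells, fewer cells with a mark and less mark per cell cannot be told apart.

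Calls in both lists of one genotype alone were found for WT, at 4 effectors. Ifit2, Oas2, Xaf1 and Cxcl10 were called in both WT lists and neither DE list, 4 of 34 genes, beside 3.28% of all protein-coding genes. None of the 34 was called in both DE lists and neither WT list, beside 0.217% of all genes. No regulator showed either pattern as reported, but with a −log10 q of at least 5 there were 2 regulators and 3 effectors with calls in WT alone, and without DE replicate 1 there were 1 and 6. When each H3K4me2 list was held to its strongest 17103 intervals, the length of the shortest, none of the 34 showed the pattern. Calls then stood at 6, 8, 5 and 4 effectors and 14, 13, 15 and 13 regulators, beside 46.0%, 49.1%, 47.9% and 47.4% of all genes. The background fell to 1.2% for calls in WT alone and rose to 1.09% for calls in DE alone. Windows of 1 kb or 2 kb lowered the count of genes called in WT alone from 4 to 1. Without WT replicate 1 it was 8, and without DE replicate 1 it was 7. Fewer lists have to agree when a library is left out, so the count cannot fall. No share of all genes was computed with a library left out.

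Ifit2, which binds AU-rich RNA and restrains translation, was the one of these 4 with the same interval directly at an annotated start in both WT lists. Its folds were 5.63 and 5.15, and the interval at chr19:34550577-34550698 spans nearly the whole stretch printed for Ifit2. The nearest DE intervals were 22910 and 22932 bp away. Oas2, another synthetase, had folds of 5.63 and 5.80 in an interval 4360 and 4408 bp from its end. Cxcl10, a chemokine that draws T cells, had folds of 5.42 and 6.76, and its intervals at 4886 and 4843 bp were just inside the window of 5 kb. The Oas2 interval lay 7572 bp from Oas3 in WT replicate 1, just outside, and the nearest intervals of Cxcl9, at 11231 to 11251 bp, were further out. Xaf1, an apoptosis factor, had folds of 3.39 and 5.47 in intervals at separate places. That of WT replicate 1 lay 2936 bp outside the gene. That of WT replicate 2 lay inside it, 4 bp from a gene end and over the annotated start.

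Fold and cover moved differently between the genotypes. Of the 17 genes called in all 4 lists, 12 had both WT folds above both DE folds and 0 the reverse, beside 62.0% and 1.83% of the 9684 genes called in all 4. Of the 12, 9 were regulators and 3 effectors. The strongest interval of a gene need not lie at the same place in each list, as at Ddx58. Bases covered were higher in both WT than in both DE libraries at 8 genes (Irf2, Irf7, Ifnar1, Socs1, Ifit2, Oas2, Xaf1 and Cxcl10), beside 21.4% of the genes tested. They were higher in both DE libraries at 3 genes (Irf1, Ifnar2 and Bst2), beside 14.1%. The order of cover turned with list length: at equal length 4 genes had more cover in both WT and 7 in both DE libraries, beside 11.9% and 23.6% of all genes with an interval. Without WT replicate 2 the counts were 9 and 10 genes, and without DE replicate 2 they were 9 and 9. Without WT replicate 1 they were 18 and 3, and without DE replicate 1 they were 13 and 4. Fewer libraries have to agree when 1 is left out, so these counts could only stay or rise. No share of all genes was computed for them. Interval width also differs by genotype, and its part in the counts of fold and cover was not tested.

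The intervals merged into 77 regions, 54 at regulators and 23 at effectors. Of the regulators' regions 23 were called in all 4 lists, and of the effectors' 6, beside 43.1% of the 23282 regions at protein-coding genes. Both WT and neither DE list called 2 regions at regulators and 4 at effectors, and 0 regions were called in both DE lists alone, beside 8.65% and 1.25% of all such regions. Another 27 regions were in 1 list only, beside 28.3%, 16 of them in WT replicate 2 and 8 in WT replicate 1, against 1 in DE replicate 1 and 2 in DE replicate 2. This split by library was not computed for the regions of all protein-coding genes, and the WT lists were the longer ones. It therefore cannot show a lean towards WT that is particular to the interferon genes. For 68 of the 77 regions the nearest gene was the interferon gene itself.

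Among the 34 genes, H3K4me3 was called at regulators and at no effector in the single library of this mark. It covered windows of 7 of the 15 regulators and sensors (46.7%) and of 0 of the 19 effectors, beside 24.7% of all protein-coding genes. The 7 were Irf1, Irf2, Irf3, Irf5, Ifnar2, Ifngr1 and Ifngr2. Irf3 had the highest fold, 10.1, followed by Ifngr2 with 9.55 and Irf2 with 7.77, and Ifngr1 had the lowest, 3.35. The 3 sensors, Socs1, Ifnar1, Stat2, Irf7 and Irf9 were not called. Adar had an H3K4me3 interval inside the gene, 16168 bp from its nearest end and thus outside the window. It lies over an annotated inner start of Adar, and when annotated starts were used in place of gene ends H3K4me3 was called at 1 effector. The list was the shortest of the 5, so genes without a call there may still carry the mark. All 7 genes were also among those called for H3K4me2 in all 4 lists, and each of the 11 H3K4me2 regions that overlapped H3K4me3 lay at a regulator.

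The classes also differed in promoter sequence. A promoter window of 300 bp, from 250 bp before to 50 bp after the start, was listed for 30 of the 34 genes, 15 of each class, and Usp18, Mx1, Mx2 and Oas2 had none. The ISRE core GAAANNGAA, searched on both strands, was in 12 of the 15 effector windows (80%) and in 6 of the 15 regulator windows (40.0%), beside 9.39% of the 17274 genes with a window. The shorter IRF core AANNGAAA, which can overlap the ISRE core, was in 86.7% and 40.0%, beside 24.7%. The GAS core TTCNNNGAA, which reads alike on both strands, was in 5 effectors and 4 regulators, 30% of the 30 genes beside 9.02% of all. A match describes letters and is not a bound site.

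The genes with the most ISRE cores were not those with H3K4me2 over them. Ifit1, Ifit3 and Isg15 each had 3 ISRE cores within the 300 bp, and none lay in an interval of any list. In Ifit1 these were at −109 to −76 bp from the start, the capitals in the sequence shown, and in Isg15 at −78 to −58 bp as 1 run of overlapping cores. The 2 cores of Oas1a, at −20 to −6 bp, and the 1 of Rsad2, at −119 to −111 bp, lay inside an interval of WT replicate 2 only. In contrast, the overlapping pair of Socs1 at −83 to −69 bp, the core of Trim25 at −9 to −1 bp and 1 of 2 cores of Ifih1 lay in intervals of all 4 lists. So did the GAS cores of Irf1, at −90 to −82 bp, and of Ifnar1, at −5 to 3 bp. Ifit2, called at its start in both WT lists, had no ISRE core in its window, and its GAS core at −241 to −233 bp was outside the interval.

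At Bst2 the cover over the cores differed between the genotypes' lists. Its 2 ISRE cores and its GAS core, at −136 to −116 bp, were covered in both DE lists and in neither WT list. The DE lists had 1 interval across the whole start, chr8:71537174-71537844 in DE replicate 1, whereas the WT lists had separate intervals to either side of the cores. The merged region was called in all 4 lists.

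**Figure D3:**
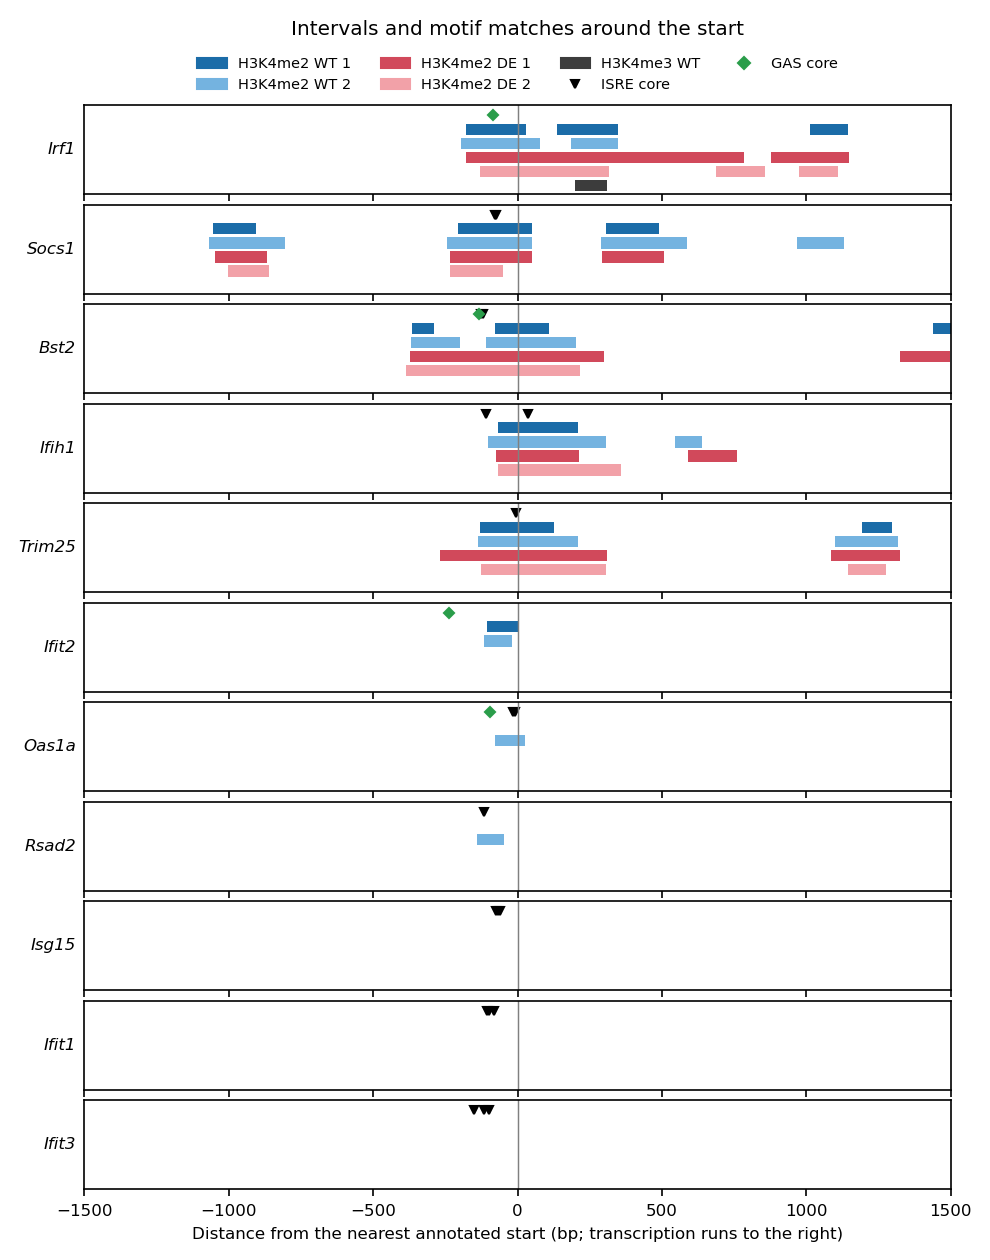
Intervals of each list (bars, coloured by library) and core matches (triangles for ISRE, diamonds for GAS) by distance from the nearest annotated start in bp (x axis), for 11 genes (rows). A bar is an interval of 1 library. Irf1, Ifih1, Trim25 and Bst2 have bars of all 4 H3K4me2 lists over the start (Socs1 of 3, with that of DE replicate 2 ending 50 bp before it). Ifit2 has a bar of WT replicate 1 over the start and 1 of WT replicate 2 ending just before it. In WT replicate 2 alone, Oas1a has a bar over the start and Rsad2 has 1 ending 49 bp before it. Isg15, Ifit1 and Ifit3 have matches with no bar.

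CpG dinucleotides were fewer in effector windows. The median was 6 per window in effectors and 18 in regulators, beside 15 in all 17274 genes. A limit of 5 CpG, chosen outside the design, set apart 6 effectors and no regulator: Cxcl9, Gbp2, Ifit1, Ifit3, Oas1a and Oas3. Of these 6, 0, 3, 0 and 0 were called, and of all genes with at most 5 CpG 18%, 16.8%, 14.2% and 12.0% were called. Of the 9 effectors above 5 CpG, 7, 8, 4 and 2 were called, and of the 15 regulators 14, 15, 15 and 13, beside 74.8%, 75.0%, 69.5% and 63.5% of all genes above 5 CpG. Effectors above 5 CpG were thus nearer to the share of like genes in WT (77.8% and 88.9%) than in DE (44.4% and 22.2%). A window was listed for 46 of the 55 further induced effectors, with a median of 5.5 CpG. Intervals were called at 69.6%, 80.4%, 76.1% and 71.7% of these 46, beside 57.7%, 57.5%, 52.9% and 48.0% of all 17274 genes. A low median CpG count thus did not go with a low share of calls in that set. CpG content moved with class among the 34 genes, and its part in the difference between classes was not tested.

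**Figure D4:**
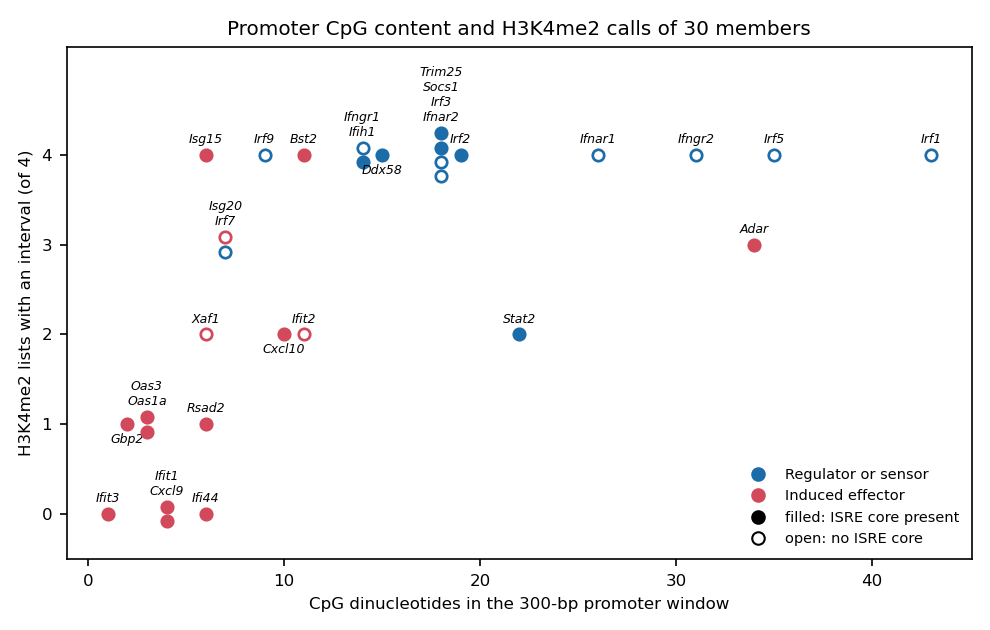
CpG dinucleotides in the promoter window of 300 bp (x axis) and number of the 4 H3K4me2 lists with an interval (y axis) for the 30 genes with a window. Points are genes, shifted slightly up or down where they coincide. Regulators and sensors (blue) lie at 7 CpG or more and mostly at 4 lists, and the 6 genes at 5 CpG or fewer, all effectors (red), lie at 0 or 1 list. Filled points hold the ISRE core.

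Of 55 further induced effectors, 35, 41, 38 and 36 were called (63.6%, 74.5%, 69.1% and 65.5%), above the share of all genes in each list. These shares were near that of the 19 effectors in WT replicate 2 (73.7%) and above it in the other 3 lists. Among the called genes of the 55, the median place was 21.9%, 19.3%, 27.4% and 25.7%. In each list this was nearer to all called genes than to the called genes of the 19. Their median fold was 8.13, 10.6, 6.52 and 6.47. The lower place of the 19 was thus not shared by the 55. Of the 55, 34 were called in all 4 lists, 13 in none and 0 in both WT lists and neither DE list. At equal list length 23, 35, 34 and 36 of the 55 were called, beside 46.0%, 49.1%, 47.9% and 47.4% of all genes. The 55 then lay below the share of all genes in WT replicate 1 and above it in the remaining lists. Among the first of these in list order, Ifitm3, which blocks virus entry, had folds of 19.7 and 22.8 in WT and 13.2 and 8.67 in DE, and Ifitm2 had 5.48, 6.76, 4.40 and 5.42. Ifit1bl1, Ifit3b, Ifitm1 and Ifi27 had no interval in any list. H3K4me3 was called at 14 of the 55 (25.5%), close to the 24.7% of all genes.

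Of 22 further signalling genes, 18, 18, 17 and 15 were called (81.8%, 81.8%, 77.3% and 68.2%), 13 of them in all 4 lists and 0 in both lists of one genotype alone. The receptor kinases Jak1, Jak2 and Tyk2 were called in every list. Jak2 had folds of 13.3 and 17.7 in WT and 8.59 and 7.98 in DE, and Jak1 4.36, 3.86, 4.01 and 2.997. Mavs, the adaptor of both RNA sensors, had 21.0 and 8.35 in WT and 4.82 and 3.90 in DE. Tbk1, the kinase downstream, had 16.3, 8.04, 5.89 and 6.22, and its relative Ikbke 6.07, 4.34, 4.96 and 4.27. H3K4me3 was called at 4 of the 22 (18.2%, beside 24.7%), Tyk2 and Tbk1 among them. This share lay below the 25.5% of the further effectors, the reverse of the order between the classes of the 34 genes.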

How the data were processed

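Each library had its own MACS2 peak list, so peaks were called per sample. Per the submitters' processing notes, the tools were Trimmomatic, Bowtie2, SAMtools, Picard and MACS2 2.2.9.1 on mm10. No source used here gives their settings or a control. The deposited score is 10 times −log10 q cut to a whole number, per the values. The deposited fold is a linear ratio of summit over local background, and the −log10 p and −log10 q are the authors' own, used only to describe and rank intervals within a list. In the 5 lists the smallest −log10 q ranged from 1.00 to 1.02. The summit offset, as deposited, is in bp. The lists hold no read totals and depth is unknown, and only the number and strength of intervals show it. No label states that replicates are separate animals, so p-values measure only the spread between these libraries.

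Entries sharing an interval were counted once, by their strongest p, and 1 bp of overlap with a window of 5 kb to both sides of either gene end sufficed. Coordinates count from 1. Genes came from RefSeq (GRCm38.p6). Bases covered were tested per gene by exact permutation with Benjamini-Hochberg adjustment, and the code was tested on simulated data (Python 3.11.15, pandas 2.3.3, NumPy 2.4.6). All other counts are descriptions. The text names all 34 genes, the first 6 of each further pathway list, and the first 3 markers of each list with any called against its list (1 marker is not reported here), while Oas1b and Cxcl11, transcribed pseudogenes here, were left out of the further effectors. Genes, classes and lists were chosen with earlier results of these data known. Alternatives were other windows, annotated starts only, lists of equal length, a −log10 q of at least 5, leaving out each replicate, and the replicate block.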

Additional observations from a re-analysis of the deposited data

How the results depend on the processing

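Of 273 recomputed values, 241 stayed within 1.5 times the reported count (or kept their side of the test), and 32 moved beyond it. Some of the 241 could not move, such as the 0 genes passing the test, so this tally does not measure stability. The balance of genes with more cover in WT (8) or in DE (3) turned to 4 and 7 with lists of equal length. Without WT replicate 2 it was 9 and 10, where fewer libraries have to agree. Regulators and sensors had the higher share of called genes in each library under every setting tried. The count of genes called in both WT and neither DE list, 4 as reported, was 1 with windows of 1 kb, 1 with windows of 2 kb and 0 with lists of equal length, and it ranged from 4 to 8 when 1 replicate was left out. At −log10 q of at least 5, genes called in all 4 lists fell from 17 to 11 and genes with H3K4me3 from 7 to 3.

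Replicate numbers are shared between the genotypes. Same-numbered deviations of bases covered correlated at −0.20 over 13287 genes, and at −0.01 for log2 of the cover. With 2 libraries per genotype, these values cannot show whether the libraries were prepared in pairs. With the number as a replicate block, 0 genes could pass, since the smallest p of a sign test over 2 pairs is 0.5, and 8 of the 34 genes had less cover in DE in both pairs and 4 more. With crossed pairs, an alternative chosen after seeing the data, these were 12 and 6. Depth is unknown, so a missing call at the weak intervals of effectors does not show absence of the mark.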

Other observations

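The interferon genes sit in clusters, and these differed in how much H3K4me2 they held. On chromosome 16 the receptor genes Ifnar2, Ifnar1 and Ifngr2 lie between positions 91372783 and 91564007, with Il10rb among them. Their starts were called in all 4 H3K4me2 lists, Il10rb in 3 of the 4. The Ifit cluster on chromosome 19 holds Ifit2, Ifit3, Ifit1bl1, Ifit3b and Ifit1 from 34550550 to 34650009. Its intervals within 5 kb of these genes were 2 regions by Ifit2, both from WT lists. In DE replicates 1 and 2 the interval nearest to Ifit1 was 96780 and 96845 bp away.

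Oas1a, Oas2 and Oas3, which lie close together on chromosome 5, held isolated intervals of WT lists, while Oasl1 and Oasl2, elsewhere on that chromosome, were called in all 4 lists. In DE replicate 1 the nearest interval was 80987 bp from Oas2, 103752 bp from Oas3 and 213755 bp from Oas1a. Rsad2 is different in that its neighbour Cmpk2, another induced effector, was called in all 4 lists, with folds of 3.78, 5.78, 3.65 and 3.61. Its interval lies 12696 to 12743 bp from Rsad2 in the lists where it is the nearest one. Among the further effectors, the antigen processing genes Tap1 and Psmb8 shared an interval with folds of 31.5 and 41.4 in WT and 22.2 and 25.7 in DE. The choice of Cmpk2, Oasl1, Oasl2, Tap1 and Psmb8 was made with their values in view.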
